A study of Mus musculus with 8 samples.

Results

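The ubiquitin ligase and deubiquitinase genes of this mouse series were taken as all genes whose symbol begins with Usp, Rnf, Trim, Fbxo, Fbxw, Fbxl, Ube2, Ube3, Ubr, Cul, Hectd, Herc or March, followed by a number or a lower-case letter, in any of the 4 deposited lists of m6A peaks. The rule found 183 genes, called members here, among the 8733 genes with a peak and the 53465 genes of the count table, and all 183 could be joined to that table. The members carried 828 of the 35697 peaks. Of the members, 181 were annotated as protein-coding. The exceptions were the pseudogene Ube2d-ps and the transcript Usp46os2, whose name marks it as antisense to Usp46. The name rule also takes in Usp6nl, Uspl1 and Fbxo18, which are not ubiquitin enzymes of the usual kind. The symbol Rnf26 stands for 2 overlapping Ensembl genes, so the members have 182 distinct symbols, and how reads were divided between that pair is uncertain.

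N6-methyladenosine (m6A) is a methylated form of adenosine found inside many messenger RNAs. In MeRIP-seq an antibody enriches the RNA pieces that carry it, and these are sequenced beside the total RNA pieces (input). Here the material was germ cells from the testes of C57BL/6 mice aged 12 weeks. The mice were wild type (WT) or Alkbh5-/- (KO) and thus lacked the gene of an m6A demethylase. The labels name a PA and an RO fraction, which the title of the series gives as pachytene spermatocytes and round spermatids. Each genotype and fraction had 1 input and 1 immunoprecipitated library, 8 samples in 8 groups, and the labels do not say how many animals went into each. With 1 library per group there was no replicate within a group, no test across libraries was made, and each difference below describes these libraries. Where 4 values follow each other without names, their order is WT PA, KO PA, WT RO, KO RO. Intervals cover counting error only, and those for shares of peaks treat the peaks of 1 gene as independent, which they are not.

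Ubiquitin is a small protein that marks other proteins for degradation or for changes in activity or position. An E1 enzyme activates it, an E2 enzyme (the Ube2 genes) carries it, and an E3 ligase selects the substrate. HECT ligases such as Ube3a, Hectd and Herc proteins take ubiquitin onto themselves first, whereas RING ligases, among them most Rnf, Trim and March proteins, bring the E2 to the substrate. Cullins are scaffolds of multi-subunit ligases, and F-box proteins (Fbxl, Fbxo, Fbxw) are the substrate receptors of the Cul1 complex. Ubiquitin-specific proteases (Usp) take ubiquitin off again. In male germ cells the system is known for histone ubiquitylation in meiosis, for the removal of histones in spermatids and for the turnover of cell-cycle proteins.

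The count table held 9921365 to 13147239 counts per input library. Levels are given as CPM, the count divided by the library size after TMM scaling, which corrects for differences in library composition. Alkbh5 had no peak and therefore no symbol in the files, so its counts were not analysed here and the genotype labels were not checked on them. Summed levels of marker genes differed between the libraries. Of 13 round spermatid markers 8 had a symbol, and their summed level was 257, 589, 495 and 1077 CPM. Of these 8 markers, 6 were at least 2-fold higher in KO in PA and 5 in RO, among them Prm2, Tnp2, Odf1 and Akap4, whereas Acr had log2 ratios of −0.48 and −0.61 and Acrv1 of −0.09 and −0.81. The 4 of 12 meiotic markers with a symbol summed to 2397, 1306, 2075 and 1529 CPM, most of it Sycp2, and Sycp1 had log2 ratios of −0.09 and 0.25. The 2 of 6 Leydig cell markers summed to 136, 40.0, 41.5 and 16.7 CPM, the 4 of 7 Sertoli cell markers to 239, 318, 172 and 198 CPM, and the 5 of 8 markers of muscle, endothelium and macrophages to 368, 371, 188 and 364 CPM. No marker with a symbol was at 0 in any library. The part of these shifts in the genotype and stage ratios below was not tested, and in such bulk libraries fewer cells of a type and less RNA per cell cannot be told apart.

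Sequence could be set beside peaks only near transcription starts, where RefSeq start windows (GRCm38.p6, 250 bases before to 50 after the start) were at hand for 143 members. The peaks of 9 of these members reached such a window. GGAC is the core of the consensus in which m6A is placed, and in full that core is followed by A, C or T. The windows of Fbxw7, Fbxl12 and Fbxo30, the members whose peaks covered GGAC on the gene strand there, are shown by 30 bases around the motif, which is in capitals. These peaks covered 8 such positions, 4 of them followed by A, C or T, and 5 are shown, since the 3 left out, 2 in Fbxo30 and 1 in Fbxw7, were all followed by G. Fbxw7 is the receptor for cyclin E and Myc, and Fbxl12 and Fbxo30 are other F-box receptors. All 3 had the peak concerned classed in the 5′ untranslated region. At all 8 positions, however, the A of GGAC lay before the RefSeq start of the window, at −225 to −22 bases.
Fbxw7, chr3:84815348-84815377, plus strand: cggctcctcggcgGGACtccaggagttctc
Fbxw7, chr3:84815497-84815526, plus strand: cgtgactgtcccgGGACaagtggcccagga
Fbxw7, chr3:84815540-84815569, plus strand: ccacagtctgcagGGACccaggaagagaaa
Fbxl12, chr9:20643017-20643046, minus strand: tggccacgcctcaGGACcactccccgcccg
Fbxo30, chr10:11281414-11281443, plus strand: cggtccggtgcggGGACgctgcggagccgc

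The first Fbxw7 site lay inside the peak in the KO PA and KO RO lists, and the other Fbxw7 sites shown lay inside it in WT PA, KO PA and KO RO. The Fbxl12 site was covered in WT PA and KO PA, and the Fbxo30 site, where G follows the core, in KO PA and KO RO. The WT RO list had no peak over any of these 5 sites. The search in peaks was for GGAC alone, on the gene strand, with no other motif. Over whole start windows both strands were counted. GGAC stood on the gene strand in 65.6% of all 32851 start windows and in 73.8% of the 183 windows of members. It stood on either strand in 87.7% and 92.3%. A match is a run of letters common in such windows and not a mapped methyl site.

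In every list a larger share of the members than of all genes with a peak carried a peak. The WT PA list held a peak in 118 of 183 members (64.5%, Wilson 95% interval 57.3 to 71.1), against 53.9% of the 8733 genes. The KO PA list held 144 members (78.7%, 72.2 to 84.0), against 69.7%. The WT RO list held 135 (73.8%, 67.0 to 79.6), against 66.4%. The KO RO list held 145 (79.2%, 72.8 to 84.5), against 63.9%. A peak in all 4 lists was found for 88 members (48.1%, 41.0 to 55.3), against 34.4% of the genes with a peak. A peak in 1 list only was found for 33 members (18.0%), against 31.4%.

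Members were also more abundant than the set of all genes with a peak, themselves included, at a median of 47.4 to 49.1 CPM per library against 25.9 to 26.4 CPM. Within bands of input level the shares with a peak lay closer together in most bands, but not in all. Below 10 CPM the WT PA list held a peak in 54.5% (34.7 to 73.1) of the members and 34.9% of the other genes. From 30 to 100 CPM the WT PA list held a peak in 59.3% of the members and 62.0% of the other genes, and the KO PA list in 80.0% and 81.6%. At 100 CPM and above the shares were 83.9% and 72.7% in WT PA, and 90.7% and 80.3% in KO RO. In 15 of the 16 combinations of list and band the interval of the members' share held that of the other genes. The exception was KO RO from 10 to 30 CPM, with 80.0% (65.2 to 89.5) against 62.5%. The bands held 22 to 65 members each, so these intervals are wide. The part of level in the larger share of the members was not tested.

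**Figure D1:**
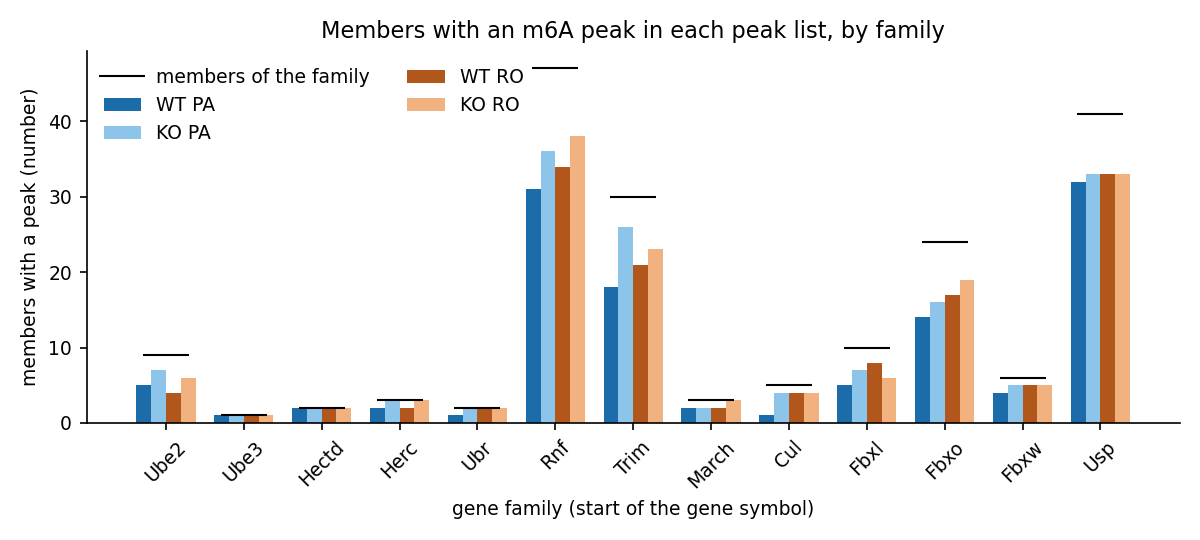
Bars give the number of members with a peak in each of the 4 peak lists, by family, and the black mark gives the size of the family. Usp stayed at 32 to 33 of 41 in all lists, whereas Trim went from 18 of 30 in WT PA to 26 of 30 in KO PA.

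Among the families of 10 or more genes, the number with a peak varied least across the lists for the Usp deubiquitinases. Of 41 Usp genes 32 had a peak in WT PA and 33 in each of the other lists, and 25 (61.0%) had one in all 4. Of 47 Rnf genes 31, 36, 34 and 38 had a peak, and 23 (48.9%) in all 4. The Trim genes with a peak numbered 18, 26, 21 and 23 of 30, and 13 (43.3%) were in all 4. Of 5 cullins only Cul1 had a peak in WT PA, whereas 4 had one in each other list. Both Hectd genes and Ube3a were in every list, and of 9 Ube2 genes 2 were.

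Within PA, 105 members had a peak in both genotypes, 39 in KO only and 13 in WT only. Within RO these numbers were 110, 35 and 25. All genes with a peak numbered 3968, 2116 and 742 in PA and 3847, 1734 and 1953 in RO. The 11 members with a peak in both KO lists and neither WT list were Cul5, Fbxo39, Fbxo5, Herc4, Rnf157, Rnf215, Trim2, Trim25, Trim32, Ube2j2 and Usp9y. Fbxl4, Trim47, Trim62 and Usp43 had the reverse. These genes made up 6.01% and 2.19% of the members, against 6.87% and 2.32% of all genes with a peak, so neither share stood out.

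The KO over WT ratios of the inputs were set side by side for members with a peak in both genotypes and in 1 only. Members with a peak in KO PA only had a median log2 ratio of KO over WT of 0.18 in the PA inputs, those with one in WT PA only 0.09, and those with one in both 0.01. In RO the medians were 0.15, −0.11 and −0.02. Ratios above 0 were found in 22 of 39, 7 of 13 and 53 of 105 members in PA. In RO they were found in 20 of 35, 7 of 25 and 53 of 110. The part of the input ratio in the presence of a peak was not tested. Over all genes with a peak the medians were 0.06, −0.23 and −0.09 in PA, and 0.08, −0.22 and −0.06 in RO.

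When the peaks of a gene that overlapped by at least 1 bp of exon on the same strand were joined across lists, the 828 peaks made 304 regions. Of these 99 (32.6%) had a peak in all 4 lists and 104 (34.2%) in 1 only, against 23.8% and 43.1% for other genes. The regions found in 1 list were unevenly spread. WT RO alone held 55 of them, KO PA 20, KO RO 19 and WT PA 10. This spread was not computed for regions of other genes. By gene, a larger part of WT RO was not particular to the members. Of the 2738 genes of any kind with a peak in 1 list only, 1252 had it in WT RO. The members with a peak in the WT RO list only numbered 13 (7.10%, against 14.3% of all genes with a peak) and included Rnf2, a Polycomb ligase of histone H2A, and the deubiquitinases Usp14 and Usp37. The WT RO list also had the largest share of member peaks at a false discovery rate of 0.05 or more, 27 of 220 (12.3%, against 13.1% for other genes in that list), and 24 of those 27 had no counterpart in KO RO.

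**Figure D2:**
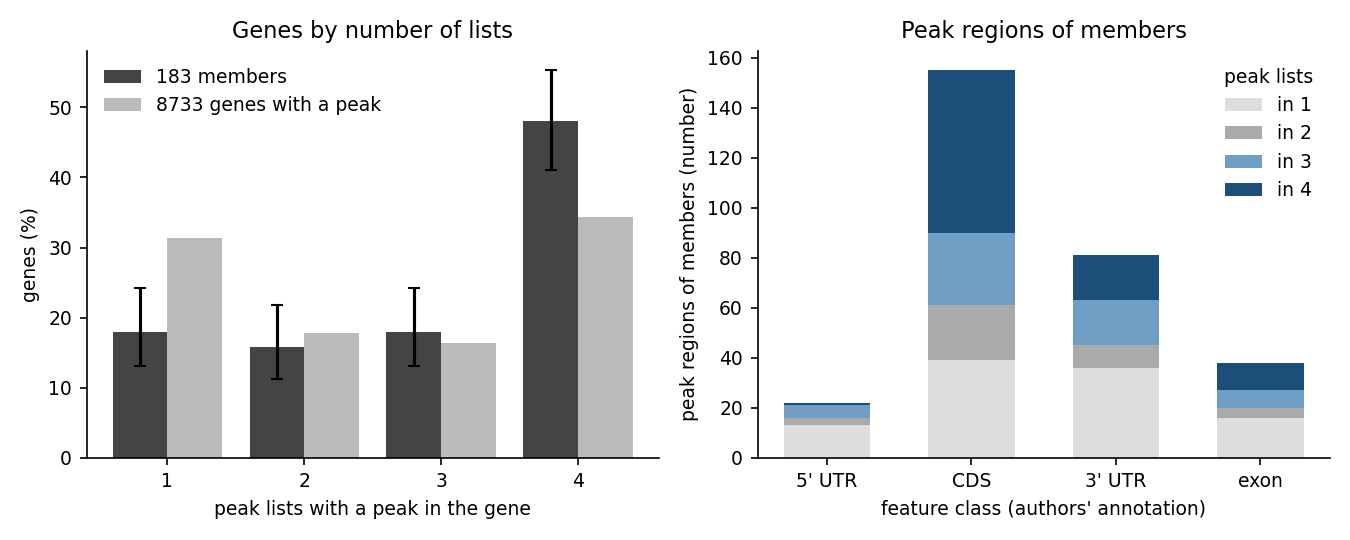
On the left, bars give the percent of genes with a peak in 1, 2, 3 or 4 lists, for the members (dark, with Wilson 95% intervals) and for all genes with a peak (light). On the right, stacked bars give the number of member peak regions per feature class and the number of lists that hold them. Of 155 coding regions 65 were in all 4 lists, and of 22 in the 5′ untranslated region 1 was.

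Member regions in the coding sequence (CDS) were in all 4 lists more often than those in untranslated regions. In the coding sequence 65 of 155 regions (41.9%) were in all 4 lists, in the 3′ untranslated region 18 of 81 (22.2%), and in the 5′ untranslated region 1 of 22 (4.55%), where 13 were in 1 list only. The shares for regions of other genes were 29.0%, 16.9% and 11.9%. Sharing of peaks with the other genotype did not follow this order in every list, since all 7 member peaks of the 5′ untranslated region in WT PA had a counterpart, against 89.1% in the coding sequence, and in KO RO the share was 68.8% in the 3′ untranslated region and 68.2% in the coding sequence. Among the Rnf, Trim, Fbxo and Usp families, Trim regions were shared least, with 10 of 54 (18.5%) in all 4 lists and 29 in 1. Usp regions were shared most, with 31 of 70 in all 4 and 14 in 1. The share was lower still for the smaller Fbxl family, with 2 of 17 regions (11.8%) in all 4 lists.

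By peak, the coding sequence held 61.8%, 59.1%, 53.2% and 60.0% of member peaks. The 3′ untranslated region held 18.5%, 24.7%, 27.7% and 22.3%, the 5′ untranslated region 3.93%, 5.58%, 6.36% and 4.65%, and exons without a finer class 15.7%, 10.7%, 12.7% and 13.0%. The 3′ share was 9.19 points higher in WT RO than in WT PA (Newcombe 95% interval 0.789 to 17.2), and among other genes 3.74 points higher (2.46 to 5.02). For the PA fraction the KO minus WT difference of the 3′ share was 6.11 points (−2.15 to 14.1), and for the RO fraction it was −5.40 (−13.4 to 2.75), so the direction was opposite in the fractions and both intervals held 0. Against other protein-coding genes, the coding share of members differed by −4.35 to 0.317 points, and each interval held 0. Small families held few genes, and single genes set some of their shares. All 20 Hectd and all 7 Ube3a peaks were in the coding sequence, 25.7% of the 35 Fbxl peaks were in the 5′ untranslated region, and 58.8% of the 17 March peaks were in exons without a finer class. Fbxl12 held 8 of the 9 Fbxl peaks in the 5′ untranslated region and March7 held 9 of the 10 March exon peaks, each region being counted once per list.

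In each pair of lists the share of member peaks with a counterpart was above that of other genes, and for the KO PA and WT RO peaks set against the other genotype the interval excluded the value of the other genes. Of the WT PA peaks 84.8% (78.8 to 89.4) overlapped a KO PA peak, against 79.6% for other genes. Of the KO PA peaks 67.0% (60.4 to 72.9) overlapped a WT PA peak, against 56.3%. In RO, 63.6% (57.1 to 69.7) of WT peaks overlapped a KO peak and 64.7% (58.1 to 70.7) the reverse, against 55.7% and 58.7%. Between the fractions the KO lists overlapped more than the WT lists. Of KO PA peaks 82.8% had a KO RO counterpart and 84.2% the reverse, whereas 69.7% of WT PA peaks had a WT RO counterpart and 55.9% the reverse. The same order held for other genes, at 69.7% and 81.1% for KO and 63.9% and 50.4% for WT.

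Peaks with a counterpart in the other genotype had higher folds than those without. The fold, a ratio of immunoprecipitated to input signal, is the authors' value for each peak, and it depends on the library pair, so medians were compared only within a list, and where folds from several lists stand side by side no change is read from them. In WT PA the median fold was 13.6 for 151 shared and 10.5 for 27 unshared member peaks. The KO PA list had 22.2 and 9.40, the WT RO list 23.6 and 10.8, and the KO RO list 16.8 and 7.57. Other genes had the same order.

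Among the E2 enzymes, Ube2o had the most peaks, 9 over the lists. Ube2o is a large enzyme that combines E2 and E3 functions. Its strongest peak lay in the coding sequence on chromosome 11 (mm10, chr11:116539084-116539472 in WT PA) and was in all 4 lists, with folds of 105, 104, 315 and 296, and it was the strongest member peak of the KO RO list. The level of the gene was 135, 113, 167 and 94.7 CPM. Ube2d2b, a testis form of the UBE2D enzymes whose reads may be shared with its close relatives, had a coding peak in all 4 lists with a fold of 346 in WT RO and 4.21 in KO RO. Ube2u had a coding peak with a fold of 147 in WT RO and none in KO RO, at 35.9 and 33.7 CPM.

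Among the HECT ligases, the giant proteins Herc1 and Herc2 were among the most abundant members. Herc2, which works with Rnf8 at DNA breaks, was at 815, 836, 872 and 832 CPM and carried 1 peak per list in the 3′ untranslated region (chr7:56230931-56231411 in WT PA), with folds of 72.7, 79.8, 285 and 39.0. Herc1 was at 660.2, 741, 634 and 760.2 CPM with 12 peaks, and its WT RO peak with a fold of 63.2 began at the transcription start. The levels of both varied little among the libraries. Hectd4 was lower in KO in both fractions, at 669 and 382 CPM in PA and 755 and 370 CPM in RO, with log2 ratios of −0.81 and −1.03. Ube3a had coding peaks in all lists, and its strongest had a fold of 274 in WT RO. Outside the HECT group, Ubr2, an N-end rule ligase needed in spermatocytes, was at 203, 183, 125 and 157 CPM. Ubr2 had the same 3′ peak in all 4 lists, with folds of 33.7, 18.4, 37.7 and 43.7.

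**Figure D3:**
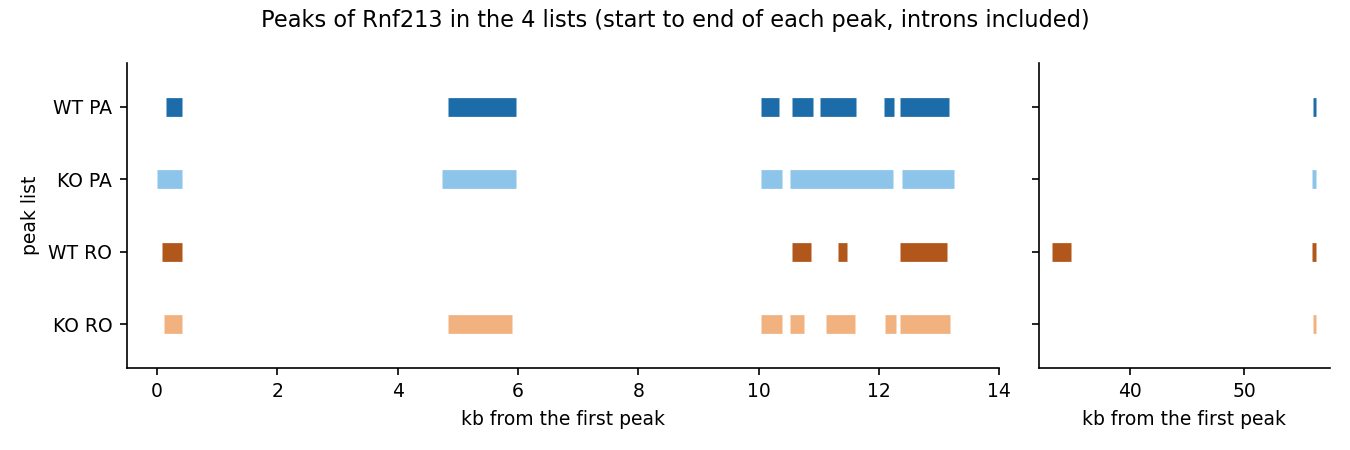
Each bar is a peak of Rnf213 from its first to its last base, by kilobases from the first peak, in the 4 lists from WT PA (top) to KO RO (bottom). The left panel covers the first 14 kb and the right panel, on a narrower scale, the rest. Peaks cluster in the coding sequence between 10.04 and 13.24 kb, and the last peak, in the 3′ untranslated region, is in all 4 lists.

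Rnf213, a giant RING ligase with an ATPase core, had more peaks than any other member, with 8, 6, 6 and 8 in the 4 lists. Of these 28 peaks 24 were in the coding sequence. The 3′ peak had folds of 14.1, 47.8, 111 and 16.2. A coding peak at 33.19 to 34.83 kb from the first appeared in WT RO only, with a fold of 15.7. The input level was 295, 264, 122 and 167 CPM and was lower in RO in both genotypes, with log2 RO over PA of −1.27 in WT and −0.66 in KO.

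Rnf8, Rnf168 and Rnf169 each carried a peak in every list. Rnf8, which ubiquitylates histones at breaks and on the sex chromosomes in meiosis, was at 13.0, 10.9, 10.2 and 7.03 CPM, and its coding peak had folds of 29.3, 41.2, 28.4 and 54.4. Rnf168, which extends that mark, was at 137, 147, 208 and 159 CPM, and its last coding peak had folds of 10.3, 7.94, 20.5 and 16.3. Rnf169, which binds it, held the strongest member peak of the WT PA list, with a fold of 157. The strongest member peak of WT RO was in Rnf19a, a ligase of the RING-between-RING type, with a fold of 426. Rnf144b, of the same type, followed with a 3′ peak of fold 359 and was in all 4 lists.

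The Trim family gave several of the largest ratios. Trim36, an acrosome-associated ligase, was at 56.1, 214, 138 and 228 CPM, so that the WT PA library stood below the others. Trim69 was at 71.0, 18.0, 55.0 and 18.0 CPM, with its exon peak in all 4 lists and a fold of 86.9 in KO PA. Trim59 had no peak in WT PA, and KO PA, WT RO and KO RO held 1, 4 and 2. Its level was 29.2, 80.3, 29.2 and 92.3 CPM, so that the list with the most peaks belonged to a library with a low level. Trim32 and Trim25, the latter a ligase of the antiviral RIG-I pathway, were highest in WT PA at 25.9 and 47.0 CPM and lowest in WT RO at 3.73 and 15.5 CPM. Of the March genes, March7 was at 149.6, 137, 137 and 139 CPM, and March10, known in spermatids, at 288, 263, 449.7 and 339 CPM.

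Among the cullins and F-box receptors, Cul1, the scaffold of the SCF ligases, had 3′ peaks in all lists with folds of 21.9, 14.9, 159 and 19.5 and levels of 97.6, 99.7, 123 and 78.2 CPM. Cul3 was at 138, 156, 105 and 151 CPM. Cul4a, needed in male meiosis, was at 268, 155, 197 and 183 CPM and had a coding peak in KO PA and WT RO only. Fbxw7 was at 131, 121, 118 and 119 CPM, levels that hardly differed. Its 5′ peak, over the sequences shown above, had a fold of 5.01 for WT PA, 19.9 for KO PA and 18.6 for KO RO, and its coding peak in KO PA was the strongest member peak of that list, with a fold of 186. Fbxl5, an iron-regulated receptor, had a coding peak in all lists with folds of 30.6, 148, 117 and 31.7. Fbxo43, an inhibitor of the anaphase-promoting complex in meiosis, was at 72.5, 40.0, 81.6 and 28.9 CPM and was lower in KO in both fractions. Its relative Fbxo5 was at 2.05, 4.16, 1.82 and 4.56 CPM, with a peak in both KO lists only.

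Among the deubiquitinases, Usp34 and Usp54 had 14 peaks each and Usp42 and Usp48 had 12 each. Usp27x had 16, but several were near-copies of the same region listed at positions a few bases apart, so that this count overstates its regions. Usp42 had its main coding peak in all lists, with folds of 49.7, 78.8, 55.2 and 129, the first being the stronger of the pair of WT PA peaks there. Its level was 161, 213, 315 and 216 CPM. Usp48 had all its 12 peaks in the 3′ untranslated region. Usp53 had a coding region in all 4 lists, with folds of 19.9, 175, 18.7 and 65.7. Another Usp53 coding region, also in all 4 lists, had folds of 17.9, 85.4, 47.1 and 190. Usp2 was at 105, 119.9, 123 and 119.5 CPM, Usp7 at 251, 289, 265 and 312 CPM with a peak in KO PA only, and Usp8, found on the acrosome of spermatids, at 258, 173, 219 and 153 CPM.

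Few members differed 2-fold between libraries, and their share was below that of genes with a peak in all 4 comparisons and both directions. In 4 of these 8 cases the interval of the members' share held the share of genes with a peak. Of 182 members with at least 1 CPM in either library, 14 (7.69%) were at least 2-fold higher and 21 (11.5%) at least 2-fold lower in KO PA than in WT PA. Scaled by total counts alone, 26 were higher and 8 lower, so which direction had more members depends on the scaling. The background was 13.0% and 14.1% of genes with a peak, and 23.8% and 19.9% of all genes. In RO, 21 (11.5%) were higher and 14 (7.69%) lower in KO, against 13.3% and 13.7% of genes with a peak and 23.0% and 19.0% of all genes. For RO over PA in WT, 16 members (8.79%) were higher and 12 (6.59%) lower, against 12.4% and 10.7%, and 21.6% and 18.7%. For RO over PA in KO, 6 (3.30%) were higher and 4 (2.20%) lower, against 7.36% and 6.66%, and 17.5% and 15.2%. The median log2 ratio of the members was 0.02 and −0.02 for KO over WT in PA and RO, and −0.10 and −0.02 for RO over PA in WT and KO. The medians of genes with a peak were −0.05, −0.05, −0.03 and −0.01. Members had higher levels than these genes, and the part of level in the shares was not tested.

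**Figure D4:**
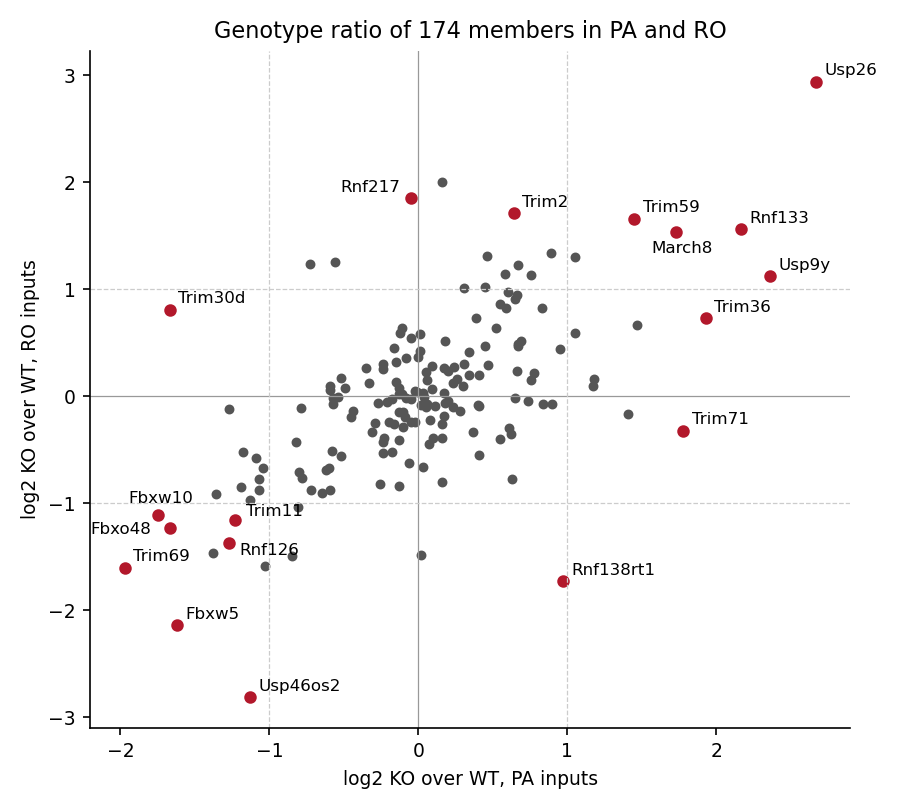
Each point is 1 of 174 members with at least 10 CPM in some library, with the log2 ratio of KO over WT in the PA inputs (horizontal) and the RO inputs (vertical). Dashed lines mark 2-fold. Usp26 lies at the upper right and Trim30d, Trim71 and Rnf138rt1 lie in the quadrants of opposite sign.

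Most members had a genotype ratio of the same sign in both fractions. Over 174 members with at least 10 CPM in some library, 115 had the same sign in PA and RO (Pearson r 0.62, Spearman rho 0.58), and over the 7053 genes with a peak 4995 did (0.56 and 0.57). The ratios of PA and of RO come from separate libraries. These are correlations across genes, which are not replicates, and they describe 4 libraries. For the stage ratio in WT against that in KO, 109 of the 174 members had the same sign (0.33 and 0.35), and 4427 of the 7053 genes with a peak did (0.30 and 0.34). The levels of KO PA and KO RO were closest to each other of all pairs of libraries, with r 0.96, against 0.92 for WT PA and WT RO and 0.89 for WT PA and KO PA. Genes with a peak had the same order, at 0.93, 0.90 and 0.86, so it was not particular to the members.

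In 3 members both KO libraries were at least 2-fold above both WT libraries (1.72% of 174, background 2.48% of genes with a peak). Usp26, a testis deubiquitinase gene on the X chromosome, was at 7.93, 51.3, 10.6 and 82.3 CPM. The counts behind these levels were 93, 555, 122 and 901, and the log2 ratios of KO over WT were 2.67 (2.38 to 3.03) in PA and 2.94 (2.68 to 3.24) in RO. Its coding peak was in all 4 lists, with folds of 22.1 in WT PA and 23.8 in WT RO. March8, a ligase of membrane proteins, was at 10.5, 35.1, 10.6 and 30.9 CPM, and its single peak was in KO RO. Trim59 was the other, with log2 ratios of 1.45 and 1.66.

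In 6 members both KO libraries were at least 2-fold below both WT libraries (3.45%, background 4.44%). Fbxw5, an F-box receptor, was at 239.6, 77.8, 257 and 58.0 CPM, with log2 ratios of −1.62 (−1.73 to −1.51) and −2.14 (−2.27 to −2.02). Trim11 was at 201, 86.0, 193 and 86.6 CPM, and Rnf126, a ligase of protein quality control, at 48.3, 20.0, 53.8 and 20.7 CPM. Fbxo48 was at 18.0, 5.55, 13.9 and 5.84 CPM, and its coding peak was in all 4 lists with a fold of 110 in KO RO. Trim69 is given above. Usp46os2 was at 6.48, 2.87, 18.4 and 2.47 CPM. Whether the counting used strand is not given in the sources used here, so its reads cannot be told apart from those of an overlapping gene. Both shares are near the background, so the counts themselves are no result about the members.

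**Figure D5:**
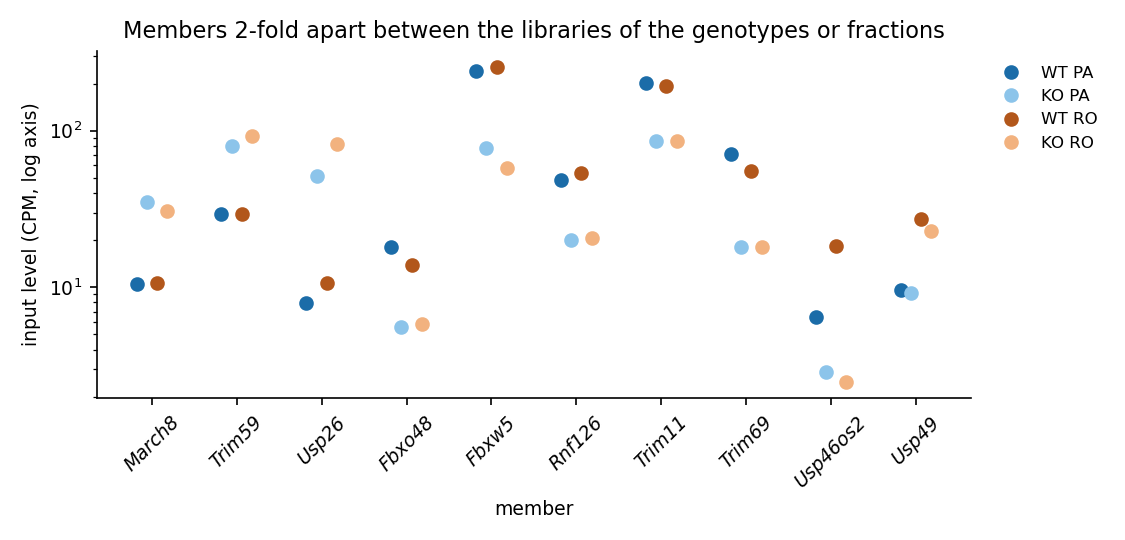
Points give the input level in CPM (log axis) in the 4 libraries for the 9 members with both KO libraries at least 2-fold above or below both WT libraries, and for Usp49, with both RO libraries at least 2-fold above both PA libraries. In Fbxw5 the WT libraries are at 239.6 and 257 CPM and the KO libraries at 77.8 and 58.0 CPM.

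Some further members were at least 2-fold apart between the genotypes in 1 fraction or in each. Usp9y, a Y-linked relative of Usp9x with which it may share reads, was at 15.9, 82.0, 47.5 and 104 CPM, with log2 ratios of KO over WT of 2.36 in PA and 1.12 in RO, and had a peak in both KO lists only. Usp9x was at 335, 458, 265 and 367 CPM. Rnf133, a testis ligase of the endoplasmic reticulum, was at 3.84, 17.8, 10.3 and 30.8 CPM, so that both KO libraries were above both WT libraries, and its coding peak was in all 4 lists. Fbxw10 was at 116, 34.4, 128 and 59.4 CPM. Rnf217 and Trim2 were highest in KO RO, at 27.8 and 20.8 CPM, against 7.56 and 6.25 CPM in WT RO. Rnf208, with 0 counts in WT PA against 20, was at least 7.23-fold higher in KO PA, taking 3 counts as the floor of the WT PA library.

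Members with both libraries of a fraction at least 2-fold apart from both of the other were about as rare as among all genes with a peak. Usp49, a histone H2B deubiquitinase, was the single member with both RO libraries at least 2-fold above both PA libraries (0.575%, background 0.539%). It was at 9.55, 9.24, 27.2 and 22.9 CPM, and its 3′ peak was in all 4 lists. No member had both RO libraries 2-fold below both PA libraries, against a background of 0.510%. Trim66, at 38.6, 25.4, 86.6 and 54.2 CPM, and Fbxo24, at 69.1, 32.9, 131 and 71.1 CPM, were higher in RO than in PA within each genotype. For Trim66 this was by more than 2-fold in each. Neither met the rule across both genotypes, and no background was computed for 2-fold within each genotype. Fbxo32 was at 13.6, 15.3, 2.26 and 9.59 CPM and was lowest in WT RO.

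The genes of the ubiquitin system with known roles in male germ cells were listed apart. Of 36 such symbols 25 were members, and 18 of these (72.0%) had a peak in all 4 lists, against 48.1% of members and 34.4% of genes with a peak. These 25 genes were more abundant per gene, summing to 4056 CPM in WT PA, against 17695 CPM for all 183 members. The part of level in the 72.0% was not tested, and no interval was computed for so few genes. The list was drawn up with earlier results of these data known and is no independent evidence. Between the genotypes 3 were at least 2-fold higher in KO PA (Rnf133, Trim36 and Usp26) and 2 lower (Fbxo24 and Trim69). In RO 2 were higher (Rnf133 and Usp26) and 2 lower (Fbxo43 and Trim69). The background of genes with a peak was 13.0% and 14.1% in PA and 13.3% and 13.7% in RO. The median log2 ratio was 0.04 in PA and 0.02 in RO. Usp14, at 37.8, 59.5, 30.1 and 56.8 CPM, and Usp44, at 99.6, 92.6, 136 and 122 CPM, were within 2-fold in each comparison.

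Genes of the pathway outside the name rule had a like share with a peak in every list. Of 100 listed genes 62 had a symbol, and 30 of them (48.4%) had a peak in all 4 lists, against 34.4% of genes with a peak. The part of level in this share was not tested either. In PA 5 were at least 2-fold higher in KO and 5 lower, and in RO 2 were higher and 1 lower, against the same background of 13.0% and 14.1% in PA and 13.3% and 13.7% in RO. The HECT ligase Huwe1 was at 545, 760.1, 465 and 676 CPM. Stambp, a deubiquitinase of the endosome, was the single listed gene at least 2-fold apart between the genotypes in both fractions, at 388, 159, 261 and 104 CPM, with log2 ratios of −1.29 and −1.33. Among the RING ligases Rlim, an X-linked gene, was at 101, 196, 67.5 and 171 CPM.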

How the data were processed

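MeRIP-seq of WT and KO PA and RO cells gave 1 input and 1 immunoprecipitated library per group, grouped by sample titles. The authors deposited whole-number gene counts of the 4 input libraries under Ensembl identifiers, not normalized, and 4 peak lists. A peak has, per the file headers, exon blocks, strand, feature class, gene symbol, a fold enrichment (a ratio of immunoprecipitated to input signal) and a log10 false discovery rate, a score of the authors' caller. The submitters' processing notes name mm10, cutadapt 2.5, HISAT2 2.1.0 and HOMER 4.10.4 without roles. The peak caller, counting tool, annotation, and handling of strand and duplicates are not given in the sources used here.

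Members were found by symbol and joined by Ensembl identifier. The members and lists were chosen with earlier results of these data known. Counts were scaled by TMM (edgeR 4.0.16, R 4.3.3) and turned into log2 CPM with a prior count of 2. A gene entered a comparison with at least 1 CPM in 1 of its libraries, and 2-fold means a log2 ratio of 1 or more, or −1 or less. The 95% intervals are exact binomial for ratios, Wilson for shares and Newcombe for differences of shares. Peaks were compared by exon blocks on the same strand (1 bp, checked against bedtools 2.31.1). On simulated libraries the ratio code recovered 200 of 200 changed genes in each comparison. These genes had at least 10 CPM and log2 changes of 2 in size, with counting error as the only noise. The simulation therefore checks the code and not the calls on real libraries. Scripts ran in Python 3.11.15 (pandas 2.3.3, scipy 1.17.1, numpy 2.4.6, matplotlib 3.10.9). DESeq2 1.42.0 gave the alternative size factors.

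Genes to name were drawn by rules. These took, per family, the member with the most peaks, and the 4 highest and 4 lowest ratios per comparison (at least 10 CPM and a count in each library). They also took members with both libraries of a genotype or fraction 2-fold apart from both of the other. Further rules took the 3 strongest peaks per list overall and without a counterpart in the other genotype, and the germ cell list. Not all genes so drawn are named in the text. Fbxo7, Trim7, Fbxo11 and Fbxw11 are among those left out. Other named genes were chosen after their values were seen. Start windows and their sequences are from RefSeq (GRCm38.p6). Gene counts were used for input libraries only.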

Additional observations from a re-analysis of the deposited data

Results flagged for a closer look

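Among members with at least 10 CPM in some library, 3 had a genotype ratio that had opposite signs in the fractions, was at least 2-fold in 1 of them and differed more than 4-fold between them, with 1 library per group. The difference was not tested. Trim30d, of a mouse Trim cluster with close copies, had a log2 ratio of KO over WT of −1.67 in PA and 0.81 in RO, at 19.2, 5.92, 7.21 and 12.8 CPM in WT PA, KO PA, WT RO and KO RO. Trim71, a ligase known in stem and germ cells, had 1.78 in PA and −0.32 in RO, at 4.86, 17.1, 17.8 and 14.2 CPM, so that WT PA stood below the other libraries. Rnf138rt1, whose name marks it as a retrotransposed copy that may share reads with Rnf138, had 0.97 in PA and −1.73 in RO, at 5.54, 11.0, 13.5 and 3.93 CPM.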

How the results depend on the processing

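Of 120 alternative values of the 32 main results, 107 kept their call. Requiring a reciprocal overlap of 50% lowered the share of member peaks with a counterpart in the other genotype to 67.4% (WT PA), 55.8% (KO PA), 49.5% (WT RO) and 50.7% (KO RO), and matching by gene raised it to 92.7%, 80.5%, 87.3% and 82.3%. Scaling by total counts alone gave 26 members higher and 8 lower in KO PA, against 14 and 21, so the split turned. It moved the median log2 ratio of members for KO over WT to 0.31 in PA and 0.16 in RO, and for RO over PA in WT to −0.00, while those of all genes went from 0.04, 0.04 and 0.01 to 0.35, 0.22 and 0.11, so that the members stayed within 0.11 of all genes. Joining overlapping peaks of 1 gene, an alternative chosen after seeing the data, left 175, 213, 218 and 212 peaks. Of 126 alternative ratios of named members 116 stayed within their counting interval, 10 moved, all under total counts, and none changed sign. The labels give no replicate numbers, so no replicate block was fitted. Low counts limit genes such as Rnf208 and Fbxo5, and the IP depth is not analysed here.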

Other observations

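Members on the sex chromosomes were few, with 4 on X and 1 on Y, but other X-linked genes differed from autosomal ones. Of 226 other X-linked genes with a peak, 74 were at least 2-fold higher and 14 at least 2-fold lower in KO PA than in WT PA, with a median log2 ratio of 0.49, against −0.07 for 7968 autosomal genes. In RO the numbers were 94 and 11 of 230, with a median of 0.73 against −0.07. Of the X-linked members, Usp26 and Usp9x were above 0 in both fractions, with Usp9x at 0.45 and 0.47, Usp27x was below 0 in both, at −0.44 and −0.14, and Rnf138rt1 had opposite signs. The summed level of 8 round spermatid markers, though not that of Acr and Acrv1, was also higher in KO in both fractions, and its part in these values was not tested.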
